A study of Mus musculus with 8 samples.

Results

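The 10 genes described here are the canonical Notch receptors *Notch1*, *Notch2*, *Notch3* and *Notch4*, the Jagged ligands *Jag1* and *Jag2*, the Delta-like ligands *Dll1*, *Dll3* and *Dll4*, and *Lfng*, which encodes a sugar-adding enzyme of the receptors. They were taken by gene name from a table of 20926 genes, and all 10 were found in it. Molars were dissected from mice at postnatal (PN) day 3, labelled as strain C57BL/6, the epithelium was removed, and RNA of the mesenchyme was sequenced in 8 libraries. The paper describes its mice as of mixed background. The 4 control libraries came from *Ezh2fl/fl* mice, which carry floxed *Ezh2* alleles without Cre. The other 4 came from *Osr2KI-Cre;Ezh2fl/fl* mice, in which Cre expressed from the *Osr2* locus recombines the same floxed alleles. Both groups therefore share the floxed *Ezh2* alleles and differ in the *Osr2KI-Cre* allele. By the paper's account this Cre does not act in tooth epithelium, and alveolar bone is among its targets beside dental mesenchyme. Whether a library is 1 mouse or a pool of mice is not given in the sources used here, so the p-values measure the spread between these libraries.

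In Notch signalling a Jagged or Delta-like ligand on one cell binds a Notch receptor on its neighbour. The receptor is then cut, first by ADAM proteases and next by the gamma-secretase complex, and its intracellular part enters the nucleus, where it joins the DNA-binding protein Rbpj to switch on genes of the Hes and Hey families. Fringe enzymes such as Lfng extend sugars on the receptor and so change which ligands it responds to. *Dll3* differs from the other ligands in that its protein does not activate receptors on neighbouring cells. In teeth, Notch genes are known from the enamel-forming epithelium, the pulp and its blood vessels, and *Jag2* is required for normal enamel. Ezh2 is a Polycomb histone methyltransferase, and the mark it places is typical of silent genes.

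The start regions of the 2 members that passed the test described below, *Notch1* and *Dll3*, are shown first because these genes moved in opposite directions. Sequences are RefSeq promoter windows on GRCm38.p6, the build also called mm10, from 250 bases before to 50 bases from the start site, and all 10 members had one. The *Notch1* and *Dll3* windows lie inside the gene spans given below, which reach further upstream in GENCODE. CpG dinucleotides are in capitals.
Notch1 (chr2:26503773-26504072, minus strand): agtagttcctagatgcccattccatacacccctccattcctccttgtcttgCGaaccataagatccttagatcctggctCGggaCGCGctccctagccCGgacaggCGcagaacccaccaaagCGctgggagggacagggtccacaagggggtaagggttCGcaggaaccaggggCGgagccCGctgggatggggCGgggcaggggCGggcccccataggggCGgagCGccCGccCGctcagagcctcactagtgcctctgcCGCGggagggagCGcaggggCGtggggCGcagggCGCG
Dll3 (chr7:28301736-28302035, minus strand): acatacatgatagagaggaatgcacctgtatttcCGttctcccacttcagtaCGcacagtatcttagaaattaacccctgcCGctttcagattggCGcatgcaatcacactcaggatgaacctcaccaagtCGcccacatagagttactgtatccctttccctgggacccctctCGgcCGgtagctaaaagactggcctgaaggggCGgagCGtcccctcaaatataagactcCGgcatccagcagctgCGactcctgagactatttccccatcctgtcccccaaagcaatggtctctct
The *Notch1* window holds 23 CpG and the *Dll3* window 11. Among 32851 promoter windows of this length the median is 7, with quartiles of 3 and 20. Both windows were therefore above the median, and only that of *Notch1* was above the upper quartile. The members ranged from 5 CpG at *Notch4* to 63 at *Jag2*.

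The Rbpj core TGGGAA was searched on both strands, and 25.6% of all windows hold it. Of the 10 members, 1 did, *Lfng*, with 2 matches that start 135 and 108 bases before its start site. One of these lies in the longer form GTGGGAA, found in 6.38% of all windows. Of the 5 listed target genes with a window, *Hes5*, *Hes7* and *Hey2* held a match. *Lfng* and *Hes5* are shown, with the matches in capitals, as the member with a match and the target gene whose libraries separated by genotype.
Lfng (chr5:140607091-140607390, plus strand): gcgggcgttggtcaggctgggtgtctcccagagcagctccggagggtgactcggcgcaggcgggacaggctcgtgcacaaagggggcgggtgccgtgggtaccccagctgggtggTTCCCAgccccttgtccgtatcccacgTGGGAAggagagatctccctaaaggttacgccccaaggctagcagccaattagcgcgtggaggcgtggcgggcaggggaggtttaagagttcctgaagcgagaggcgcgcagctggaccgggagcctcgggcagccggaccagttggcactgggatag
Hes5 (chr4:154960673-154960972, plus strand): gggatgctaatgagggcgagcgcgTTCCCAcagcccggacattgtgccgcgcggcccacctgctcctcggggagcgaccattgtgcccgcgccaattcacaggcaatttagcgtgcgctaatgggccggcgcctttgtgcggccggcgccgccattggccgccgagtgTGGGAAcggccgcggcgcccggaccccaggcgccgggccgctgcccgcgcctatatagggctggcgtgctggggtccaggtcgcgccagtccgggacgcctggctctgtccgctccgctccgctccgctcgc
A match is a run of letters and not a measured binding site.

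The deposited values are normalized read numbers per gene without a correction for gene length. One read was worth a value between 0.0129 and 0.019, and the libraries held an estimated 48.3 M to 68.8 M reads. *Ezh2*, the targeted gene, had values of 38.3 to 55.0 in control and of 23.2 to 36.0 in *Osr2KI-Cre;Ezh2fl/fl* libraries. The groups did not overlap (p = 0.0286 by a two-sided exact permutation test, the minimum for 4 against 4 libraries), while limma's adjusted p over all genes was 0.235. Genes of dental mesenchyme were present in every library, and so were genes of the removed epithelium. The summed value of 11 dental mesenchyme genes lay between 2123 and 2484 in control and between 1965 and 2499 in *Osr2KI-Cre;Ezh2fl/fl* libraries, and that of 10 epithelial genes between 2234 and 4850 and between 2079 and 2968. *Amelx*, *Ambn* and *Enam*, transcripts of enamel-forming ameloblasts, together reached 15516, 28280 and 11280 in control libraries 3 and 4 and *Osr2KI-Cre;Ezh2fl/fl* library 3, and between 675.1 and 2298 in the other libraries. In bulk tissue, fewer cells of a type and less RNA per cell cannot be told apart.

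The fold change of a gene is the difference of its mean log2(value + 1), *Osr2KI-Cre;Ezh2fl/fl* minus control, tested with limma over the 14854 genes that reached a value of 1 in at least 4 libraries. *Notch1* fell and the other 8 members that passed this filter did not pass the test. *Dll3* was below the filter in every library and was read from the same fit over all 20926 genes, in which it rose. Over the 10 members, 9 had a negative and 1 a positive log2 fold change in the fit without the filter, with a median of -0.23. Among all genes in that fit the median was 0.02 and 44.5% were negative. After Benjamini-Hochberg adjustment 1 of the 9 members was called, beside 2.07% of all genes tested and 0.512% called lower. At an unadjusted p under 0.05, 4 of the 9 were lower (*Notch1*, *Dll1*, *Jag2* and *Jag1*) and none was higher, beside 4.87% and 8.27% of all genes tested.

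**Figure D1:**
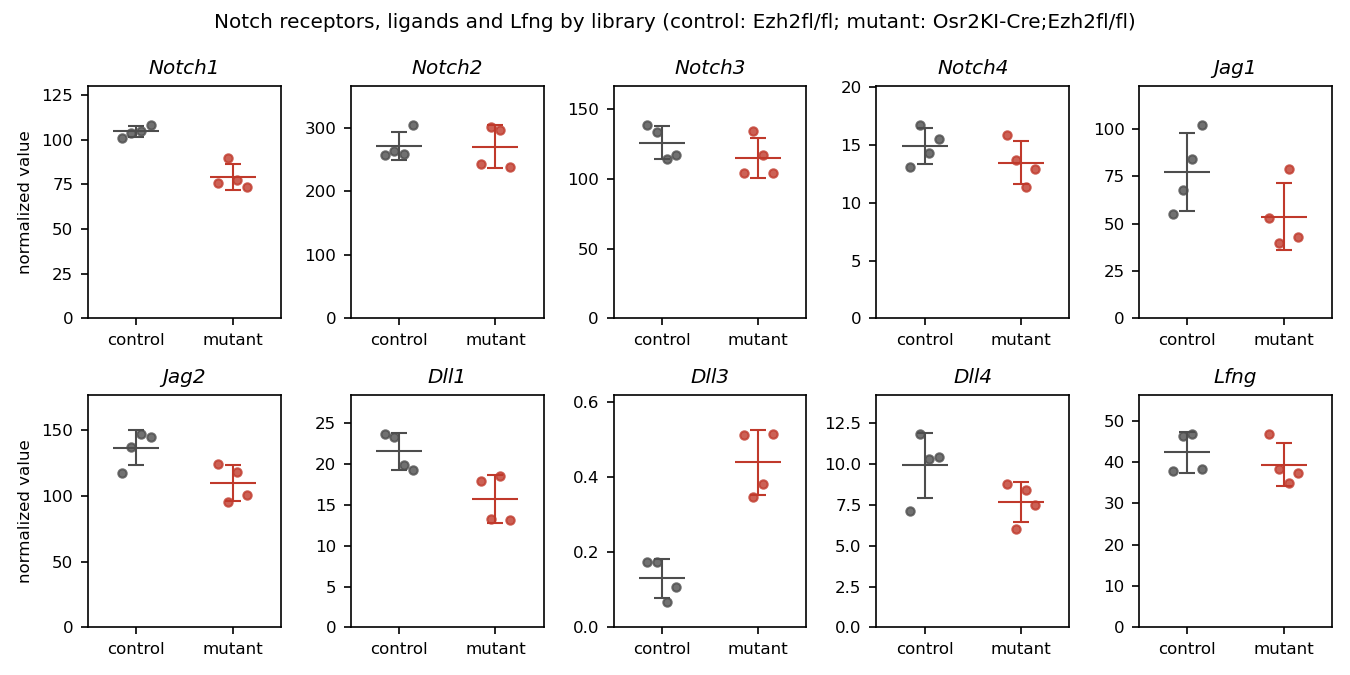
Normalized value (linear axis from 0) of each of the 10 genes in the 4 control and 4 *Osr2KI-Cre;Ezh2fl/fl* libraries; each point is a library, and the line and bar are the mean and SD. The groups are apart for *Notch1*, *Dll1* and *Dll3* and overlap for the other 7 genes. Over all genes that passed the filter, 2.77% were apart lower and 5.76% apart higher. *Dll3* is not among those genes.

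**Figure D2:**
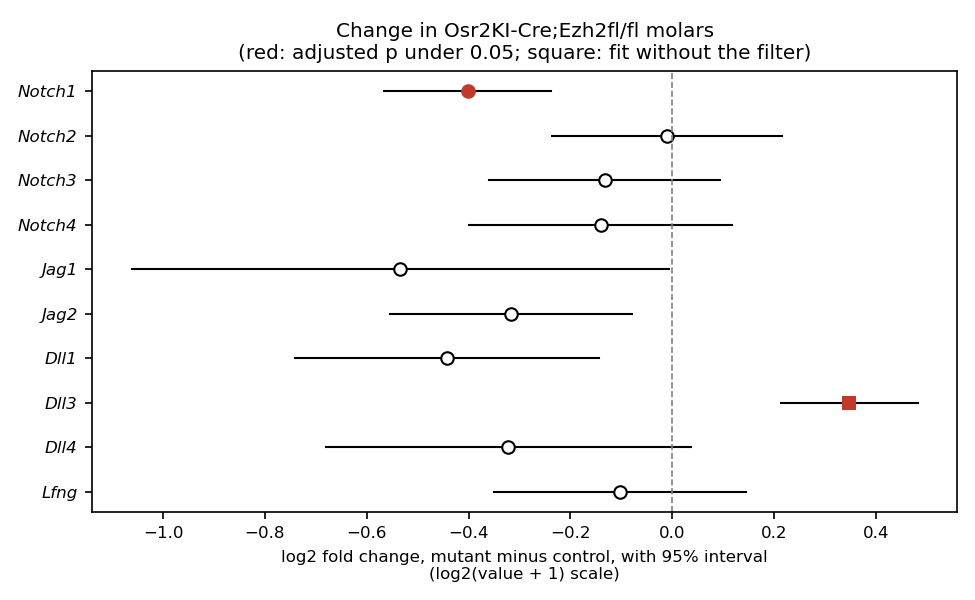
Log2 fold change of each gene with its 95% interval from limma, on the log2(value + 1) scale. *Notch1* at -0.40 and *Dll3* at 0.35 are past an adjusted p of 0.05, and the intervals of *Notch2*, *Notch3*, *Notch4*, *Dll4* and *Lfng* include 0.

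*Notch1* encodes a receptor found on many cell types, blood vessel endothelium and dental epithelium among them. It lies on the minus strand of chromosome 2 from 26457903 to 26516663. It had values of 101.1, 103.7, 105.0 and 108.3 in the controls, libraries 1 to 4, and 75.5, 89.7, 77.5 and 73.7 in *Osr2KI-Cre;Ezh2fl/fl* libraries 1 to 4. Every *Osr2KI-Cre;Ezh2fl/fl* library was thus below every control library, as was the case for 2.77% of all genes tested. The control libraries lay close together. The means were 104.5 ± 2.98 and 79.1 ± 7.23 (SD, n = 4 each), a ratio of 0.756. *Notch1* fell by 0.40 on the log2 scale (standard error 0.07, 95% interval -0.57 to -0.24, limma's adjusted p = 0.0241). The exact permutation test gave p = 0.0286.

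The call for *Notch1* was not stable to the loss of single libraries, though its size was. Without control library 2, 3 or 4 or *Osr2KI-Cre;Ezh2fl/fl* library 3 or 4, limma's adjusted p was 0.0869, 0.102, 0.0808, 0.0515 and 0.0881. The log2 fold change stayed between -0.46 and -0.37 with any library left out. Without the 3 libraries highest in ameloblast transcripts it was -0.36 (adjusted p = 0.431 in limma), estimated from 2 control and 3 *Osr2KI-Cre;Ezh2fl/fl* libraries. With the ameloblast transcripts as a covariate it was -0.39 (standard error 0.08, limma's adjusted p = 0.0484). The genes *0610009E02Rik* and *Gm13568* overlap *Notch1* on the opposite strand, and their values, at most 2.37 and 0.421 in any library, were small beside those of *Notch1*.

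Genes of blood vessel endothelium, which also expresses *Notch1*, are given beside it. The summed value of 10 endothelial genes was 398.9 to 455.5 in control and 365.8 to 403.5 in *Osr2KI-Cre;Ezh2fl/fl* libraries. None of the 10 passed the adjusted threshold, 9 had a negative log2 fold change, and at an unadjusted p under 0.05 there were 3 lower and 1 higher. These endothelial genes are named after their values were seen. *Kdr*, the main receptor for vascular growth factor on endothelium, was 82.7 to 91.9 in control and 65.0 to 79.3 in *Osr2KI-Cre;Ezh2fl/fl* libraries (log2 fold change -0.31, limma's adjusted p = 0.0853). *Cdh5*, the cadherin of endothelial junctions, was 102.7 to 122.9 and 95.9 to 101.5 (log2 fold change -0.24, adjusted p = 0.152). *Erg*, an endothelial transcription factor, was 12.1 to 14.1 and 16.0 to 24.8 (log2 fold change 0.47, adjusted p = 0.131). The groups were apart for these 3 genes, lower for *Kdr* and *Cdh5* and higher for *Erg*, which enters the covariate with the others. Over all genes tested, 2.77% were apart lower and 5.76% apart higher. With the mean log2 level of the 10 endothelial genes as a covariate, *Notch1* had a log2 fold change of -0.41 (limma's adjusted p = 0.0891). The standard error was 0.09, against 0.07 without the covariate. Whether endothelial content accounts for the fall of *Notch1* was not tested.

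Genes of dental epithelium are a further group beside *Notch1*, *Jag1* and *Jag2*. Of 10 epithelial genes 0 were called by limma, all 10 had a negative log2 fold change with a median of -0.43, and 5 were lower at an unadjusted p under 0.05. With their mean log2 level as a covariate, a setting added after the data were seen, *Notch1* stood at -0.41 on the log2 scale (standard error 0.10, limma's adjusted p = 0.134). In this fit *Notch1* was not called, and whether epithelial content accounts for its fall was not tested. In the same fit *Jag1* stood at -0.06 (standard error 0.23) and *Jag2* at -0.10 (standard error 0.09), against -0.53 and -0.32 without the covariate. *Dll4* stood at -0.04, *Notch3* at -0.32 and *Dll1* at -0.47, with limma's adjusted p-values of 0.922, 0.239 and 0.322.

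*Notch2*, a receptor of wide expression, had the highest values of the 10 genes. They were 257.3, 263.7, 258.8 and 304.8 in the controls, libraries 1 to 4, and 243.0, 301.6, 296.5 and 238.8 in *Osr2KI-Cre;Ezh2fl/fl* libraries 1 to 4. The groups overlapped throughout. The log2 fold change was -0.01 with a 95% interval from -0.24 to 0.22 (limma's adjusted p = 0.983).

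*Notch3*, the receptor of pericytes and vascular smooth muscle, had values of 138.9, 133.4, 114.6 and 117.1 in control libraries 1 to 4. In *Osr2KI-Cre;Ezh2fl/fl* libraries 1 to 4 they were 104.4, 134.4, 117.2 and 104.3. The groups overlapped, and 2 *Osr2KI-Cre;Ezh2fl/fl* libraries lay below all controls. Its log2 fold change was -0.13 (95% interval -0.36 to 0.09, adjusted p = 0.695 from limma). With the ameloblast, endothelial and epithelial covariates it was -0.19, -0.21 and -0.32 (limma's adjusted p = 0.448, 0.450 and 0.239). Without the 3 libraries highest in ameloblast transcripts it was -0.26 (limma's adjusted p = 0.849). The summed value of 10 pericyte and smooth muscle genes was 449.7 to 515.5 in control and 405.6 to 469.2 in *Osr2KI-Cre;Ezh2fl/fl* libraries, with 0 of 9 tested genes called by limma and 1 lower and 1 higher at an unadjusted p under 0.05.

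*Notch4*, an endothelial receptor, was the lowest of the receptors, with values of 13.1, 16.7, 14.3 and 15.5 in the controls, libraries 1 to 4, and 15.8, 13.7, 11.4 and 12.9 in *Osr2KI-Cre;Ezh2fl/fl* libraries 1 to 4. The ranges overlapped, and the log2 fold change was -0.14 (95% interval -0.40 to 0.12, limma's adjusted p = 0.721). With the endothelial genes as a covariate it was -0.00 (standard error 0.11, unadjusted p = 0.996).

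Among the receptors, the share of *Notch1* in the summed value per kilobase of exon was 14.3% to 15.6% in control and 11.1% to 12.4% in *Osr2KI-Cre;Ezh2fl/fl* libraries. The shares of *Notch2* were 48.0% to 54.1% and 52.8% to 56.3%, those of *Notch3* 27.7% to 34.5% and 29.7% to 31.6%, and those of *Notch4* 3.26% to 4.13% and 2.89% to 4.60%. The ranges of the groups were apart for *Notch1* and overlapped for the other 3 receptors. Shares of 1 sum are not independent of each other, and they were not tested.

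On the log2(value + 1) scale, which understates the range of *Dll3*, *Jag1*, a ligand of many developing tissues, varied most among the members. It differed by 1.34 between the highest and the lowest library. It had values of 55.2, 67.9, 84.0 and 102.3 in the controls, libraries 1 to 4, and 52.8, 39.9, 78.7 and 42.9 in *Osr2KI-Cre;Ezh2fl/fl* libraries 1 to 4. The groups overlapped. The 3 highest values were those of control libraries 4 and 3 and *Osr2KI-Cre;Ezh2fl/fl* library 3, the libraries highest in ameloblast transcripts, in the same order. The log2 fold change was -0.53 with a standard error of 0.23 (95% interval -1.06 to -0.01, limma's adjusted p = 0.370), and the exact permutation test gave p = 0.114. Fitted beside the ameloblast transcripts it was -0.20, with a standard error of 0.09 (adjusted p = 0.351). Without the 3 libraries highest in these transcripts it was -0.44 (adjusted p = 0.562).

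**Figure D3:**
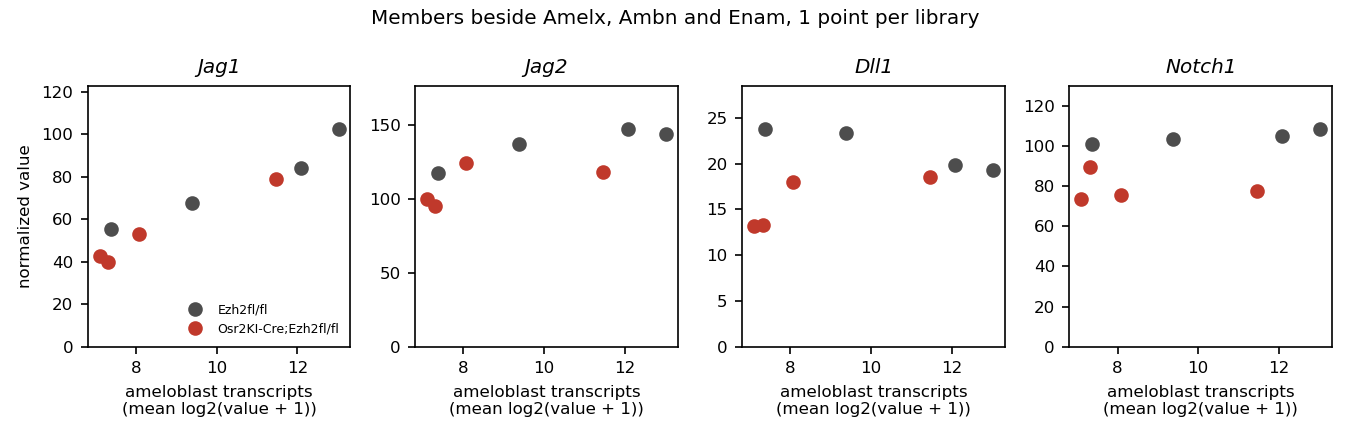
Normalized value of *Jag1*, *Jag2*, *Dll1* and *Notch1* (linear axis from 0) against the mean log2(value + 1) of *Amelx*, *Ambn* and *Enam*, with 1 point per library in grey for control and red for *Osr2KI-Cre;Ezh2fl/fl*. *Jag1* lies between 39.9 and 55.2 in the 4 libraries lowest on the horizontal axis and reaches 78.7 to 102.3 in the 3 highest; *Notch1* is lower in all 4 *Osr2KI-Cre;Ezh2fl/fl* libraries across the axis.

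The genes whose profile over the 8 libraries came closest to that of *Jag1*, among 10243 genes with a mean value of at least 10, were *Chmp4c* and *Wnt6*. Their centred log2(value + 1) differed from that of *Jag1* by a root mean square of 0.06 and 0.09. The same measure gave *Atp6v0e2* and *Fam13a* for *Dll4* (0.07 and 0.08) and *Arhgef4* and *Cyfip2* for *Dll1* (0.09 and 0.11). *Dll4* and *Dll1* had the next widest ranges on that scale.

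*Jag2* had values of 117.4, 137.0, 147.1 and 144.4 in control libraries 1 to 4. In *Osr2KI-Cre;Ezh2fl/fl* libraries 1 to 4 they were 124.4, 95.5, 118.2 and 100.3. Control library 1 lay within the *Osr2KI-Cre;Ezh2fl/fl* range, and the other 3 controls were above it. The ratio of means was 0.803 and the log2 fold change -0.32 (95% interval -0.55 to -0.08, limma's adjusted p = 0.212, exact permutation p = 0.0857). With the ameloblast covariate it was -0.21, and with the endothelial covariate -0.16, with adjusted p-values of 0.329 and 0.439 from limma.

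*Dll1*, a Delta-like ligand that activates receptors on neighbouring cells, had values of 23.7, 23.3, 19.9 and 19.3 in the controls, libraries 1 to 4, and 17.96, 13.2, 18.5 and 13.2 in *Osr2KI-Cre;Ezh2fl/fl* libraries 1 to 4. Every *Osr2KI-Cre;Ezh2fl/fl* library was below every control library (exact permutation p = 0.0286), as for *Notch1*. Among all genes tested, 2.77% were apart in this direction and 5.76% in the other. The means were 21.6 ± 2.27 and 15.7 ± 2.92 (SD, n = 4 each), with a ratio of 0.730. The log2 fold change of -0.44 (standard error 0.13, 95% interval -0.74 to -0.14) had an adjusted p of 0.154 from limma and did not pass. *A930024N18Rik* overlaps *Dll1* on the opposite strand, with values of at most 1.15.

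*Dll4*, the ligand of sprouting endothelium, had values of 7.10, 11.9, 10.3 and 10.4 in the controls, libraries 1 to 4, and 8.79, 6.04, 8.40 and 7.49 in *Osr2KI-Cre;Ezh2fl/fl* libraries 1 to 4. Control library 1 was lower than 3 of the *Osr2KI-Cre;Ezh2fl/fl* libraries, and the other controls were higher than all 4. Its log2 fold change was -0.32 (95% interval -0.68 to 0.04, adjusted p = 0.453 from limma). With the endothelial covariate it was -0.09 (standard error 0.13, adjusted p = 0.801).

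*Dll3*, on the minus strand of chromosome 7 from 28293553 to 28302238, was near the limit of what the libraries could show. It had values of 0.174, 0.174, 0.0688 and 0.107 in control libraries 1 to 4, which is 9, 12, 3 and 6 estimated reads. In *Osr2KI-Cre;Ezh2fl/fl* libraries 1 to 4 they were 0.512, 0.349, 0.382 and 0.516, or 26, 22, 26 and 39 estimated reads. Every *Osr2KI-Cre;Ezh2fl/fl* library was above every control library (exact permutation p = 0.0286). The means were 0.131 ± 0.0521 and 0.440 ± 0.0869 (SD, n = 4 each), a ratio of 3.36. On the log2(value + 1) scale, which understates changes at such values, *Dll3* rose by 0.35 (standard error 0.06, adjusted p = 0.0220 from limma without the filter). In that fit 1.22% of all genes were called higher. On log2 of the deposited value, a setting added after the data were seen, it rose by 1.83 with a standard error of 0.37 (limma's adjusted p = 0.0395). No annotated gene overlaps *Dll3*.

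Like that of *Notch1*, the call for *Dll3* was lost without some of the libraries and kept without others. Without control library 2, 3 or 4 or *Osr2KI-Cre;Ezh2fl/fl* library 4, the adjusted p was 0.0568, 0.0912, 0.0715 and 0.0700 from limma. With the ameloblast covariate the log2 fold change was 0.31 (adjusted p = 0.0546), and without the 3 libraries highest in ameloblast transcripts 0.31 (adjusted p = 0.352). The value of *Dll3* was below that of each other ligand in every library, and its share of the summed ligand value per kilobase of exon was 0.0562% to 0.180% in control and 0.360% to 0.671% in *Osr2KI-Cre;Ezh2fl/fl* libraries.

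*Lfng*, the glycosyltransferase among the 10 genes, had values of 37.8, 46.4, 46.9 and 38.4 in the controls, libraries 1 to 4, and 46.8, 38.4, 35.1 and 37.5 in *Osr2KI-Cre;Ezh2fl/fl* libraries 1 to 4. Both groups held high and low libraries. The log2 fold change was -0.10 (95% interval -0.35 to 0.14, limma's adjusted p = 0.816).

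Per kilobase of the union of annotated exons, *Notch2* was the highest member in control libraries, with a value of 25.1 ± 2.10 per kilobase (SD, n = 4). It was followed by *Jag2* with 19.6 ± 1.93, *Lfng* with 16.9 ± 1.97, *Notch3* with 15.6 ± 1.48 and *Jag1* with 13.3 ± 3.50. Lower levels were those of *Notch1* with 7.35 ± 0.209, *Dll1* with 5.11 ± 0.539, *Dll4* with 2.58 ± 0.522, *Notch4* with 1.85 ± 0.197 and *Dll3* with 0.0460 ± 0.0183. From *Jag2* to *Jag1* each gene overlapped the next over the libraries, and so did *Dll4* and *Notch4*. The other neighbours in the order were apart. In *Osr2KI-Cre;Ezh2fl/fl* libraries only *Jag2* and *Lfng* changed places, and they overlapped there too. The order depends on the length used. By the coding length, 5 of the 10 genes kept their rank in control, and *Lfng* came first with 37.4 per kilobase, ahead of *Notch2* with 36.5. By the longest transcript *Jag2* came first with 26.7, ahead of *Notch2* with 25.8. The libraries of *Notch2* overlapped those of the first gene in both cases.

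**Figure D4:**
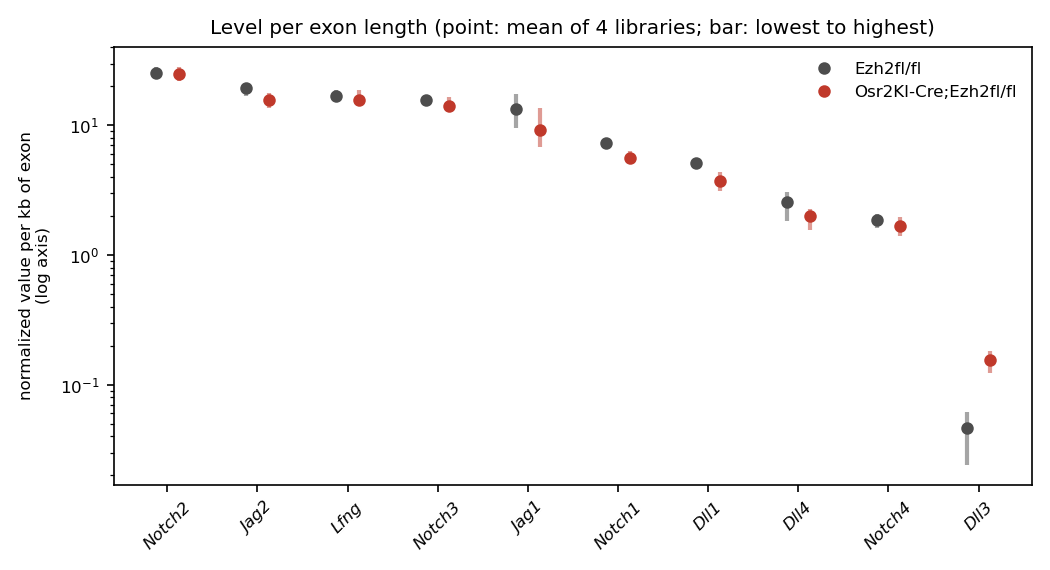
Normalized value per kilobase of exon (log axis) of the 10 genes, ordered by the control mean, with the mean as a point and the lowest to highest of 4 libraries as a bar. *Notch2* is highest at 25.1 in control, and *Dll3* is lowest at 0.0460 in control and 0.154 in *Osr2KI-Cre;Ezh2fl/fl* libraries.

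Of 65 other Notch pathway genes listed by role, 63 were in the table and 60 passed the filter. In limma's test 1 of the 60 was called, *Dlk1*, which rose, beside 1.56% of all genes called higher. At an unadjusted p under 0.05, 6 were higher and 4 lower, where 8.27% and 4.87% of all genes tested were, so the counts lay near the background. The median log2 fold change of the 60 was -0.02, beside 0.01 for all genes tested.

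**Figure D5:**
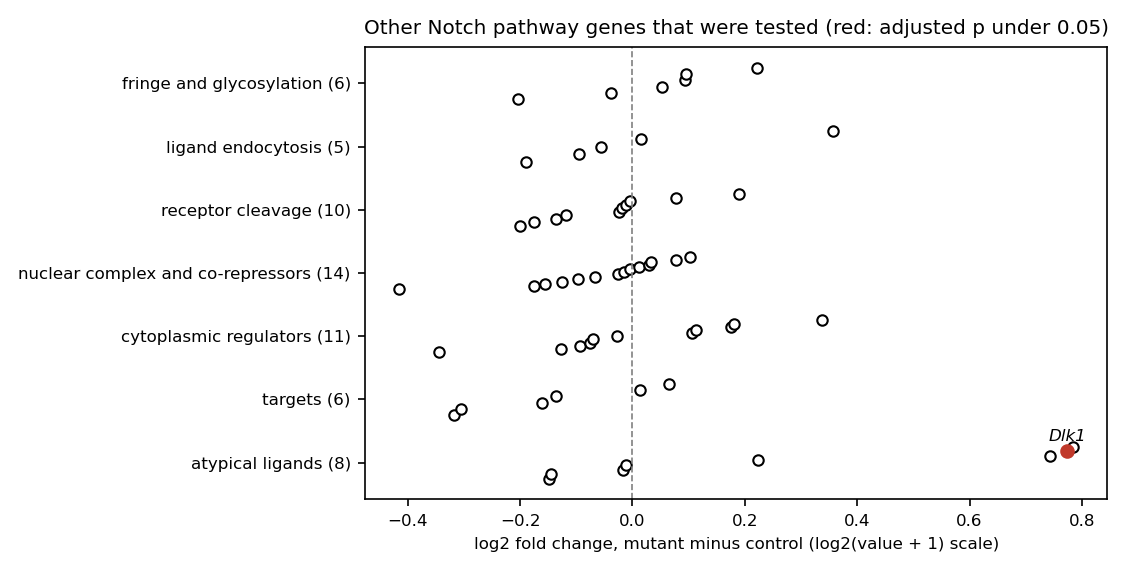
Log2 fold change on the log2(value + 1) scale of the 60 other Notch pathway genes that were tested, 1 circle per gene and 1 line per role, with the number of genes in brackets. *Dlk1* at 0.77, in red, is the gene past an adjusted p of 0.05.

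*Dlk1* encodes a Delta-like protein that lacks the domain through which canonical ligands bind Notch, and it is imprinted. It had values of 11.5, 10.1, 11.7 and 8.24 in the controls, libraries 1 to 4, and 16.0, 23.6, 16.1 and 18.5 in *Osr2KI-Cre;Ezh2fl/fl* libraries 1 to 4. All 4 *Osr2KI-Cre;Ezh2fl/fl* libraries were above all controls, as was the case for 5.76% of all genes tested. *Dlk1* rose by 0.77 on the log2 scale, with a standard error of 0.15 (limma's adjusted p = 0.0296). Without control library 2, 3 or 4 or *Osr2KI-Cre;Ezh2fl/fl* library 2 or 4 the adjusted p was 0.0973, 0.0674, 0.0737, 0.0617 and 0.0881, and with the ameloblast, endothelial and epithelial covariates 0.0551, 0.132 and 0.233. The log2 fold change with these covariates was 0.67, 0.65 and 0.53. Without the 3 libraries highest in ameloblast transcripts it was 0.77, with an adjusted p of 0.267.

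None of the other 7 tested genes of the list of atypical ligands, which also holds matrix and adhesion proteins reported to bind Notch, was called. *Mfap2*, a microfibril protein, had means of 107.5 ± 7.05 in control and 125.7 ± 7.84 in *Osr2KI-Cre;Ezh2fl/fl* libraries (SD, n = 4 each, limma's adjusted p = 0.187), with the groups apart. Among all genes tested, 5.76% were apart in this direction. *Cntn1*, a cell adhesion protein, was between 5.52 and 5.82 in the controls and at 9.91, 19.3, 5.71 and 9.80 in *Osr2KI-Cre;Ezh2fl/fl* libraries 1 to 4 (adjusted p = 0.261). Of these 4 libraries, 3 lay above the controls and library 3 lay among them. A pair of further genes of this list, *Cntn6* and *Mfap5*, were chosen after their values were seen. *Cntn6* was between 30.7 and 56.4 in the controls and between 37.5 and 95.4 in *Osr2KI-Cre;Ezh2fl/fl* libraries, with the groups overlapping (limma's adjusted p = 0.276). *Mfap5*, a relative of *Mfap2*, was below the filter and went the other way, with 38 to 112 estimated reads per control library and 9 to 30 per *Osr2KI-Cre;Ezh2fl/fl* library. Its groups were apart, and its ratio of means was 0.297 (limma's adjusted p without the filter = 0.0963). Over the genes that passed the filter, 2.77% were apart lower.

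The target genes are read at the end of the pathway, and none of the 6 that passed the filter was called. At an unadjusted p under 0.05 there was 1, *Hes1*, a repressor that many Notch-responsive cells express. It had values of 38.0, 35.0, 39.9 and 42.7 in the controls, libraries 1 to 4, and 39.2, 26.7, 27.9 and 31.3 in *Osr2KI-Cre;Ezh2fl/fl* libraries 1 to 4. Library 1 of the latter lay within the control range, and the other 3 were below it. For *Hes1* the log2 fold change was -0.32 (95% interval -0.59 to -0.05, limma's adjusted p = 0.277). *Nrarp*, which encodes a feedback inhibitor, had a log2 fold change of -0.31 (adjusted p = 0.523), and *Hey1* one of -0.16 (adjusted p = 0.738). The intervals of both included 0. *Hes5*, chosen after its values were seen, was below the filter, with an estimated 11 to 20 reads per control library and 3 to 10 per *Osr2KI-Cre;Ezh2fl/fl* library. Its groups were apart, and limma's adjusted p without the filter was 0.130. Over the genes that passed the filter, 2.77% were apart lower.

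Of the 10 genes for receptor cleavage 0 were called by limma, and 1 was lower at an unadjusted p under 0.05. This was *Adam10*, the protease of the first activating cut. It had values of 359.2, 363.8, 342.4 and 336.9 in the controls, libraries 1 to 4, and 301.8, 311.3, 302.7 and 304.2 in *Osr2KI-Cre;Ezh2fl/fl* libraries 1 to 4, with the groups apart and a ratio of means of 0.870. On the log2 scale the difference was -0.20, with a standard error of 0.06 (limma's adjusted p = 0.152). *Aph1c*, a gamma-secretase gene chosen after its values were seen, was apart in the other direction, with 2.99 to 3.313 in control and 3.314 to 4.64 in *Osr2KI-Cre;Ezh2fl/fl* libraries and a ratio of means of 1.19 (limma's adjusted p = 0.524). Of the 10 genes, 1 was thus apart lower and 1 apart higher, beside 2.77% and 5.76% of all genes tested. For *Ncstn*, also a gamma-secretase gene, the log2 fold change was -0.12 (limma's adjusted p = 0.468).

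The 6 fringe and receptor glycosylation genes held 0 calls by limma and 1 gene, *Kdelc2*, higher at an unadjusted p under 0.05 (log2 fold change 0.22, adjusted p = 0.312). The other fringe genes *Mfng* and *Rfng* had log2 fold changes of -0.20 and 0.09 (adjusted p = 0.414 and 0.668). Of the 5 genes for ligand endocytosis 0 were called, and at an unadjusted p under 0.05 *Mib1*, a ubiquitin ligase that ligands need to be active, was lower and *Neurl1a* higher. Their log2 fold changes were -0.19 and 0.36 (adjusted p = 0.266 and 0.335). *Neurl1b* stood at -0.09 (adjusted p = 0.880).

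The 14 genes of the nuclear complex and its co-repressors held 0 calls by limma and 1 gene, the co-repressor *Tle1*, at an unadjusted p under 0.05 (log2 fold change -0.42, adjusted p = 0.276). Its relative *Tle4* had a log2 fold change of -0.16 and the co-activator *Maml2* one of 0.10 (adjusted p = 0.493 and 0.713). *Rbpj* itself had values of 67.3 to 71.9 in control and 68.5 to 78.2 in *Osr2KI-Cre;Ezh2fl/fl* libraries. The 11 cytoplasmic regulators held no gene at an unadjusted p under 0.05 in limma's test and 0 calls. The lowest p-values there were those of the Deltex genes *Dtx3l*, *Dtx1* and *Dtx3*, with log2 fold changes of 0.18, 0.34 and 0.18 (adjusted p = 0.473, 0.517 and 0.520).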

How the data were processed

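The data are RNA-seq values of PN day 3 molar mesenchyme, in 8 libraries, 4 *Ezh2fl/fl* and 4 *Osr2KI-Cre;Ezh2fl/fl*, grouped by their titles. The authors trimmed single-end reads of 75 cycles and aligned them to mm10. The paper names TopHat and an RPKM normalization, while the submitters' processing notes name STAR 2.5.3a and Partek. The deposited values were handled as a signal, since they carry no length factor, share a 75th percentile of about 38.46 and are not whole reads: 58.9% to 64.4% of low values (up to 20 times the minimum of a library) came within 0.02 of a whole multiple of that minimum. For estimated reads, each value was divided by the minimum of its library and 1 was subtracted. They are estimates and not counts, and their spread between libraries is not counting error alone. Beyond these libraries, 0 columns of per-sample values were left unused. No count test was run.

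Values were tested with limma 3.58.1 in R 4.3.3 (mean-variance trend) on log2(value + 1), with Benjamini-Hochberg adjustment over all genes tested, and single genes by exact permutation, using all 70 ways to arrange the libraries. Genes were read from the fit without the filter where they fell below it. Lengths and positions are from GENCODE M21 on GRCm38, the build of mm10. The members, pathway lists and marker lists were chosen with earlier results of these data known. Named genes are the members, pathway genes past an adjusted p of 0.05, the 3 genes of lowest p in each pathway list, and the 2 genes closest in profile to the 3 members of widest range. Of these, 1 pathway gene is not reported here. *Poglut2*, *Poglut3* and *Ccn3* were found under the older symbols *Kdelc1*, *Kdelc2* and *Nov*. Alternatives were other pseudocounts, filters, scalings, covariates (ameloblast, endothelial, *Xist*), limma with array weights or without the trend, a replicate block and each library left out. The fits on log2 of the deposited value, with an epithelial covariate and without the 3 libraries highest in ameloblast transcripts were chosen after the data were seen. Plots were drawn with matplotlib 3.10.9.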

Additional observations from a re-analysis of the deposited data

Results flagged for a closer look

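Of 22 groups of 4 libraries examined on the log2(value + 1) scale (10 members and *Ezh2* in each genotype), 2 held a library far from the other 3, where chance gives about 1 in 20. Control library 4 stood out for *Notch2*, with a value of 304.8 where the other 3 controls lay between 257.3 and 263.7. Control library 1 stood out for *Ezh2*, with 55.0 where the others lay between 38.3 and 39.6.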

How the results depend on the processing

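Of the alternatives, endothelial genes as a covariate gave 140 called genes (110 higher, 30 lower), epithelial genes 97 (62 and 35), a filter at a value of 10 gave 119 (88 and 31), array weights 4040 (2165 and 1875), and the fit without the 3 libraries highest in ameloblast transcripts 8 (8 and 0), against 308 (232 and 76). Leaving out 1 library gave 129 to 429 (108 to 332 higher, 21 to 97 lower), and without control library 2, 3 or 4 or *Osr2KI-Cre;Ezh2fl/fl* library 2 or 4 it gave 158, 129, 175, 176 and 166. Members called numbered 0 with the endothelial or epithelial covariate or without the 3 libraries, 2 without the filter or on log2 of the deposited value, 7 with array weights and 0 to 1 with a library left out. Pathway genes called numbered 0 with the ameloblast, endothelial or epithelial covariate or without the 3 libraries, 21 with array weights and 0 to 3 with a library left out. *Osr2KI-Cre;Ezh2fl/fl* library 4 had an array weight of 9.66. *Notch1* lost its call with the endothelial (-0.41) and epithelial (-0.41) covariates and without the 3 libraries (-0.36), and ranged from -0.46 to -0.37 with a library left out. *Dll3* lost it with the ameloblast (0.31), endothelial (0.35) and epithelial (0.33) covariates and without the 3 libraries (0.31), and ranged from 0.32 to 0.38. Array weights brought calls for *Notch3* (-0.22), *Jag1* (-0.79), *Jag2* (-0.46), *Dll1* (-0.64), *Dll4* (-0.44) and *Lfng* (-0.23). *Notch2* turned positive with the ameloblast (0.0577) and epithelial (0.0134) covariates and without control library 4 (0.0464) or *Osr2KI-Cre;Ezh2fl/fl* library 1 (0.0367) or 4 (0.0451), ranging from -0.0667 to 0.0464 with a library left out, and *Lfng* turned positive with the endothelial covariate (0.0510). With a library left out, *Notch3* ranged from -0.21 to -0.08, *Notch4* from -0.22 to -0.07 and *Lfng* from -0.19 to -0.05. *Ezh2* was called with the ameloblast covariate (-0.64) and stood at -0.19 with array weights (limma's adjusted p = 0.135), against -0.46. By coding length 5 of the 10 members kept their rank in level. The cause of these changes was not tested.

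The paper mentions pairs of samples at the sequencing step, without saying which libraries form a pair. Between control and *Osr2KI-Cre;Ezh2fl/fl* libraries with the same replicate number, the deviations correlated by -0.34, -0.08, 0.22 and -0.43. These correlations cannot decide whether the number marks a pair, since libraries of a pair can still differ in content, as in ameloblast transcripts. With the number as a replicate block there were 73 called genes (64 higher, 9 lower), 0 members and 0 pathway genes, and *Notch1* (-0.40), *Dll3* (0.35) and *Dlk1* (0.77) had adjusted p-values of 0.139, 0.102 and 0.127 from limma.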

Other observations

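The remaining marker lists gave these counts in limma's test. Of 6 odontoblast and mineralized matrix genes 1 was called, *Ibsp*, which rose, with 2 others lower at an unadjusted p under 0.05, and of 11 dental mesenchyme genes 1, *Lhx8*, which rose, with 4 others higher. Both genes were named after their values were seen. None was called of 6 ameloblast genes tested (2 lower at an unadjusted p under 0.05), 10 epithelial genes (5 lower, and all 10 negative), 6 macrophage genes, 4 Schwann and neuronal genes, 1 skeletal muscle gene and 5 red blood cell genes (0 in each of the last 4 lists). Over all genes tested, 1.56% were called higher and 0.512% called lower. At an unadjusted p under 0.05, 4.87% of them were lower and 8.27% higher.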
